A study of Mus musculus with 30 samples.

Results

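The injury response of old muscle satellite cells was set against the injury response of younger ones. A response is the log2 difference in expression between cells of injured muscle and cells of uninjured muscle, and the quantity followed here, the response difference, is the old response minus the younger response for each gene. It was formed from 8 of the study's 30 RNA-seq libraries, 2 in each of 4 groups, all of them from skeletal muscle of C57BL/6 mice perfused with PFA, a fixative. The old groups are oASC, injured with BaCl2 and taken at 2.5 dpi (days after injury), and oQSC, with no treatment and fixed in situ. The younger groups are 60hpi, injured with BaCl2 and taken 60 hours after injury, and uninjured, with no treatment and fixed in situ. The labels call oASC and oQSC cells old and give no age for any group, so the other groups are called younger here. Whether the 2 libraries of each group stem from different animals is not stated, so the errors and tests given here measure the spread between these samples alone, which may be technical.

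Satellite cells are the stem cells of skeletal muscle and rest beneath the basement membrane of the muscle fibre. They are marked by the transcription factor Pax7 and are kept at rest in part by Notch signalling. Injury brings them into the cell cycle, with stress-responsive and immediate early genes, the myogenic factor Myod1, and growth and replication genes induced. Fixing the tissue before cells are isolated is meant to keep the RNA as it was in the animal. BaCl2 destroys muscle fibres, and satellite cells rebuild them.

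Each response was computed inside a single deposited table, so a constant difference between the tables of old and of younger cells cancels in the response difference. A negative value means that the gene rose less, or fell more, in old than in younger cells. The level of a gene in oQSC against uninjured cells, or in oASC against 60hpi cells, crosses the tables. Such levels are given as values with no test, since table and age cannot be told apart there. A lower level in these bulk samples can come from fewer cells of a type or from less RNA per cell, and these cannot be told apart.

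Totals were 55.2 and 57.4 M counts in oASC cells, 44.8 and 47.2 M in oQSC cells, 26.6 and 28.5 M in 60hpi cells, and 13.5 and 21.4 M in uninjured cells. The share of counts in models overlapping ribosomal RNA was 16.1% and 16% in oASC cells, 0.392% and 0.541% in oQSC cells, 28.3% and 31.2% in 60hpi cells, and 49.7% and 37.3% in uninjured cells. Satellite repeat models held 21.1% and 18.8% in oQSC cells and at most 0.0191% in the other 6 libraries. The label of the oQSC group was checked against the younger time course by Pearson's r of log2 CPM over 21843 genes, a description in which genes are not independent replicates. The oQSC libraries had r of 0.74 to 0.776 with the uninjured libraries, but 0.872 to 0.922 with the libraries taken 0.5 hours after injury and 0.868 to 0.892 with those taken at 32 hours. They thus stood nearer to younger cells early after injury than to the uninjured cells whose label they share. The oASC libraries had r of 0.923 to 0.926 with the 60hpi libraries and 0.9 to 0.942 with those taken at 32 hours. The highest values were with replicate 1 at 32 hours (0.942 and 0.941). Pax7 was at 8.38 and 8.12 CPM (counts scaled to a common library size after TMM) in oASC cells, against 73.1 and 62.3 CPM in oQSC cells, and at 125 and 119 CPM in 60hpi cells, against 1540 and 1310 CPM in uninjured cells. Pax7 was therefore detected in all 8 libraries and was lower in the oQSC than in the 60hpi libraries. The old response as defined here cannot be formed without the oQSC libraries. The levels of oASC against 60hpi cells, which do not use them, are therefore given beside the results.

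**Figure D1:**
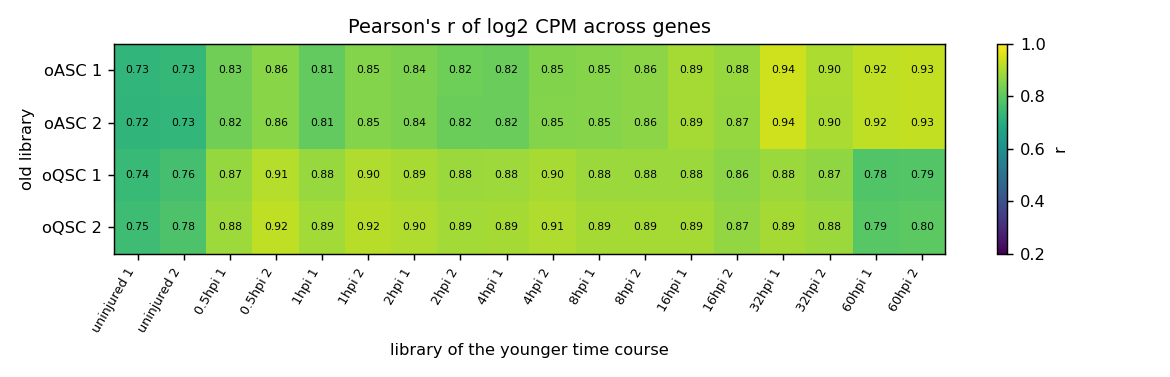
Pearson's r of log2 CPM across 21843 genes between each of the 4 old libraries (rows) and each library of the younger time course (columns, labelled by hours after injury), with the colour scale for r at the right. The oASC rows are brightest at the 32hpi and 60hpi columns (0.9 to 0.942), and the oQSC rows are darkest at the uninjured and 60hpi columns (0.74 to 0.797).

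The response differed in 8003 of 21896 genes tested (36.6%), 3649 higher (16.7%) and 4354 lower (19.9%) in the old response, by edgeR's quasi-likelihood test at a Benjamini-Hochberg adjusted p under 0.05. The old response alone called 10573 genes (48.3%), 5415 higher (24.7%) and 5158 lower (23.6%). The younger response alone called 11591 genes (52.9%), 6042 higher (27.6%) and 5549 lower (25.3%). The median response difference over all genes tested was -0.02. With all 30 libraries in the fit, which takes the spread also from groups whose libraries lay far apart, 2098 genes were called, 948 higher and 1150 lower. Leaving out oASC replicate 1 gave 5563.

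Old and younger cells moved many genes the same way. Of the 7046 genes called in both responses, 5678 had the same direction (80.6%), and 1990 of these still differed in size past the threshold. Among the 4354 genes lower in the old response, 1404 rose in younger cells with no call in old cells, 872 rose in younger cells and fell in old cells, and 798 rose in both. Among the 3649 higher genes, 1159 fell in younger cells with no call in old cells, 1136 rose in old cells with no call in younger cells, and 496 rose in old cells and fell in younger cells. The genes that were lower in the old response had a median level 2.29 log2 units higher in oQSC than in uninjured cells, and 0.07 higher in oASC than in 60hpi cells. For the higher genes these medians were -1.71 and 0.43. The distance between old and younger cells was larger before injury than after it in 88.2% of the lower genes, 73.7% of the higher genes and 69.1% of all genes tested.

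**Figure D2:**
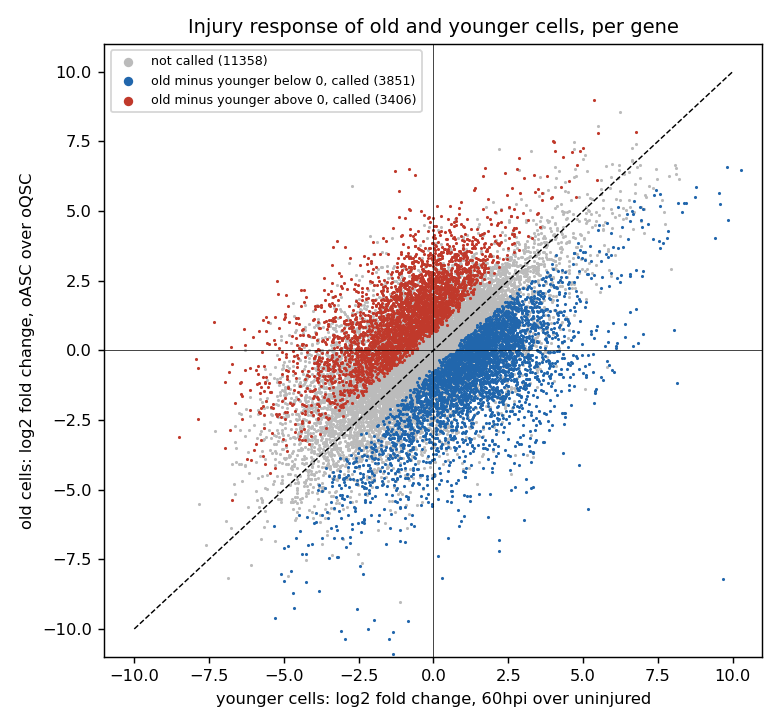
Log2 fold change of each gene in old cells (vertical, oASC over oQSC) and younger cells (horizontal, 60hpi over uninjured) for the 18615 genes with a count in every group; 2 of these lie outside the axes. Blue points are genes called lower and red points genes called higher in the old minus younger response, grey points were not called, and the dashed line marks equal responses. Blue points lie mostly at the right of 0, where younger cells rose, and old cells rose less or fell.

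Genes of protein folding in the endoplasmic reticulum, the unfolded protein response, were nearly all lower in the old response. Cells switch this response on when unfolded proteins build up in the compartment. Of 19 genes tested, 17 were lower in the old response and none was higher (89.5% called, against 36.6% of all genes). With injury 3 rose and 12 fell in old cells, and 15 rose and 2 fell in younger cells. The list median of the response difference was -3.22. Its members stood a median 3.56 log2 units higher in oQSC than in uninjured cells, and 0.22 higher in oASC than in 60hpi cells. The count was 13 with all 30 libraries in the fit.

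Hspa5, the main chaperone of the endoplasmic reticulum, was at 870 and 1010 CPM in oASC cells, against 12100 and 11500 CPM in oQSC cells. It was at 592 and 632 CPM in 60hpi cells, against 63.4 and 58.5 CPM in uninjured cells. Old and younger cells thus ended close together after injury, old cells from the higher side and younger cells from the lower side. The old response was -3.65 ± 0.14 (SE, n = 2 libraries per group), the younger response 3.33 ± 0.14, and the response difference -6.98 ± 0.2 (adjusted p = 2.47e-06). Pdia6, which rearranges disulphide bonds in the same compartment, was at 241 and 252 CPM in oASC cells, against 502 and 499 CPM in oQSC cells. Its levels were 253 and 259 CPM in 60hpi cells, against 20.6 and 25.6 CPM in uninjured cells (response difference -4.48 ± 0.2, adjusted p = 1.44e-05). Manf, a secreted protein induced by this stress, had a difference of -5.13 ± 0.23, with 102 and 117 CPM in oASC cells, against 374 and 317 CPM in oQSC cells, and 141 and 143 CPM in 60hpi cells, against 14.2 and 11.7 CPM in uninjured cells. The folding enzymes Pdia3 and Pdia4, the transcription factor Xbp1 and the degradation factor Herpud1 were also lower in the old response. Hyou1, a chaperone, and Ern1, a sensor of the pathway, were not called.

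The start regions of 3 of the called genes are shown because they hold the letters that the factors Atf6 and Xbp1 are known to bind. This element, known as the endoplasmic reticulum stress element, was searched on both strands as CCAAT and CCACG with 9 bases of any kind between them, and its first letters are also those of a CCAAT box. It is in capitals in the 250 bases before the transcription start, taken from RefSeq (GRCm38.p6) and read 5′ to 3′ on the strand of the gene.
Hspa5, chr2:34771840-34772089, plus strand: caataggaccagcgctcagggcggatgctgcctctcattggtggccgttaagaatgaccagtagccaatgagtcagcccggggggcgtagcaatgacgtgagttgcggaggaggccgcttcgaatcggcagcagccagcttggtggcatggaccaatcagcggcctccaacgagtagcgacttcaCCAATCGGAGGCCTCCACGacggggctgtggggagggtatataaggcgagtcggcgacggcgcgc
Pdia6, chr12:17266339-17266588, plus strand: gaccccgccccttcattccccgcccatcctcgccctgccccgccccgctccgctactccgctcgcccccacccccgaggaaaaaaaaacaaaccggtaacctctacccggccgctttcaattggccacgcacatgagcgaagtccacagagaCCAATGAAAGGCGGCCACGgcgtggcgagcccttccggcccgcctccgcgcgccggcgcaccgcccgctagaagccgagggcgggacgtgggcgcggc
Hsp90b1, chr10:86705445-86705694, minus strand: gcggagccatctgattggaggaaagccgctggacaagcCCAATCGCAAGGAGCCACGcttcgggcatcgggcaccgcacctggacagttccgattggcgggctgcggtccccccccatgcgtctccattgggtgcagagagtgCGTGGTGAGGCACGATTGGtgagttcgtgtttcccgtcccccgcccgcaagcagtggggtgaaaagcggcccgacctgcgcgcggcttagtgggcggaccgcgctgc
Counted from the start, the match ran from -65 to -47 in Hspa5 and from -98 to -80 in Pdia6. Hsp90b1, the chaperone of the endoplasmic reticulum from the Hsp90 family, had matches from -212 to -194 and, on the other strand, from -107 to -89. In windows from 250 bases before to 50 after the start, 7 of the 16 listed genes with an entry held the element (43.8%), namely Calr, Canx, Creld2, Dnajc3, Hsp90b1, Hspa5 and Pdia6. It was in 0.137% of all 27025 windows and 0.191% of those of the genes tested. The share was 0.406% for the genes lower in the old response (12 of 2953) and 0.214% for the higher genes (5 of 2339). The 7 listed genes are among these 12 lower genes, so the share of the lower genes partly repeats the list. Another 3 motifs were searched on both strands in the same windows. The heat shock element, taken as TTC, GAA and TTC with 2 bases of any kind between neighbours, was in 3 of 16 chaperone genes (18.8%), 0.612% of genes tested, 0.576% of the lower genes and 0.77% of the higher genes. The AP-1 site TGANTCA was in none of 21 immediate early genes, 6.93% of genes tested, 7.38% of the lower genes and 5.73% of the higher genes. The cyclic AMP response element TGACGTCA was in 3 of the 21 (14.3%), 3.16% of genes tested, 4.4% of the lower genes and 2.14% of the higher genes. A match is a description of the letters and shows no binding.

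Cytosolic chaperones moved in the same way. Of 20 heat shock and chaperone genes, 18 were lower in the old response and none higher (90% called, against 36.6% of all genes). The list median was -3.44, and 15 were lower with all 30 libraries in the fit. With injury 4 of them rose and 12 fell in old cells, and 18 rose and none fell in younger cells. Hspa8, the constitutive Hsp70 chaperone, was at 2850 and 3330 CPM in oASC cells, against 13100 and 11700 CPM in oQSC cells. Its younger levels were 2830 and 2920 CPM in 60hpi cells, against 285 and 250 CPM in uninjured cells (response difference -5.43 ± 0.2, adjusted p = 8.08e-06). The injured groups were alike in level here, and the uninjured groups lay far apart. Hsph1, a partner of Hsp70, had a response difference of -5.28 ± 0.18, falling in old cells by 2.94 ± 0.13 and rising in younger cells by 2.34 ± 0.13. Stip1, which links Hsp70 with Hsp90, had a difference of -4.8 ± 0.18. Hspa1a and Hspa1b, also lower, are near-identical copies whose reads the authors' counting could split either way. The factor Hsf1, which drives these genes, and the chaperonin subunit Cct2 were not called.

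Metallothioneins and antioxidant genes were also mostly lower, with 16 of 25 listed genes lower and 2 higher (6 and 1 with all 30 libraries in the fit). Calls covered 72% of the list, against 36.6% of all genes. Mt1, which binds zinc and copper, was at 436 and 501 CPM in oASC cells, against 5180 and 4950 CPM in oQSC cells. It was at 171 and 186 CPM in 60hpi cells, against 22.6 and 16.3 CPM in uninjured cells (response difference -6.64 ± 0.26, adjusted p = 8.45e-06). Mt2 had a difference of -5.22 ± 0.25. Sod2, the superoxide dismutase of mitochondria, had a difference of -3.25 ± 0.19, with adjusted p = 0.147 when all 30 libraries were in the fit. The higher members were Keap1, the inhibitor of Nrf2, and Gclc, which makes the precursor of glutathione.

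Immediate early genes respond to stimuli without new protein synthesis, and most of them fell with injury in old cells. Of 25 genes, 21 were lower in the old response and none higher (84% called, against 36.6% of all genes). The median was -4.41, or -4.16 with genes that lack counts in a group at their bound. The count was 14 with all 30 libraries in the fit, and 1 was higher without uninjured replicate 2. In old cells 21 fell and 1 rose with injury, and in younger cells 13 rose and 1 fell. The members stood a median 4.88 log2 units higher in oQSC than in uninjured cells and 0.55 higher in oASC than in 60hpi cells. Fosl2, an AP-1 subunit, was at 36.1 and 37 CPM in oASC cells, against 312 and 300 CPM in oQSC cells, and at 75.7 and 106 CPM in 60hpi cells, against 53.3 and 59 CPM in uninjured cells. Its old response of -3.06 ± 0.18 and its younger response of 0.69 ± 0.17 gave a difference of -3.76 ± 0.25 (adjusted p = 3.55e-05). The oQSC libraries were the highest of the 8 and the oASC libraries the lowest.

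Fos itself was at 279 and 157 CPM in oASC cells, against 2250 and 2430 CPM in oQSC cells, and at 36.5 and 112 CPM in 60hpi cells, against 78.9 and 45.6 CPM in uninjured cells. The younger groups overlapped, and its younger response of 0.26 ± 0.5 was not called (adjusted p = 0.697). The difference was -3.68 ± 0.72 (adjusted p = 0.00504), and from -4.43 without 60hpi replicate 1 to -2.65 without 60hpi replicate 2, with -4.31 without oASC replicate 1. Ier2, a nuclear immediate early protein, had a difference of -4.94 ± 0.34. Fosl1, another AP-1 subunit, was at 132 and 125 CPM in oASC cells, against 248 and 331 CPM in oQSC cells, and at 107 and 68.1 CPM in 60hpi cells, against 0.889 and 0 CPM in uninjured cells. Its difference of -9.33 ± 0.84 was -7.98 without uninjured replicate 2 and -15.92 without uninjured replicate 1, which leaves an uninjured library with no count. Adjusted p was 0.0682 with all 30 libraries in the fit. Myc, the growth regulator, fell by 2.71 ± 0.12 in old cells and rose by 0.78 ± 0.12 in younger cells, a difference of -3.48 ± 0.17 with adjusted p = 0.119 when all 30 libraries were in the fit.

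Jun, the partner of Fos in AP-1, was not called. It was at 671 and 634 CPM in oASC cells, against 110 and 214 CPM in oQSC cells, and at 70.1 and 92 CPM in 60hpi cells, against 66.9 and 27.8 CPM in uninjured cells. The old groups did not overlap, and the old response of 2.01 ± 0.43 passed the test (adjusted p = 0.00491). The response difference of 1.22 ± 0.59 did not (adjusted p = 0.141), but without uninjured replicate 2 it was 1.55 with adjusted p = 0.0404, and without uninjured replicate 1 it was 0.49. Junb, Jund and Fosb were not called either.

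**Figure D3:**
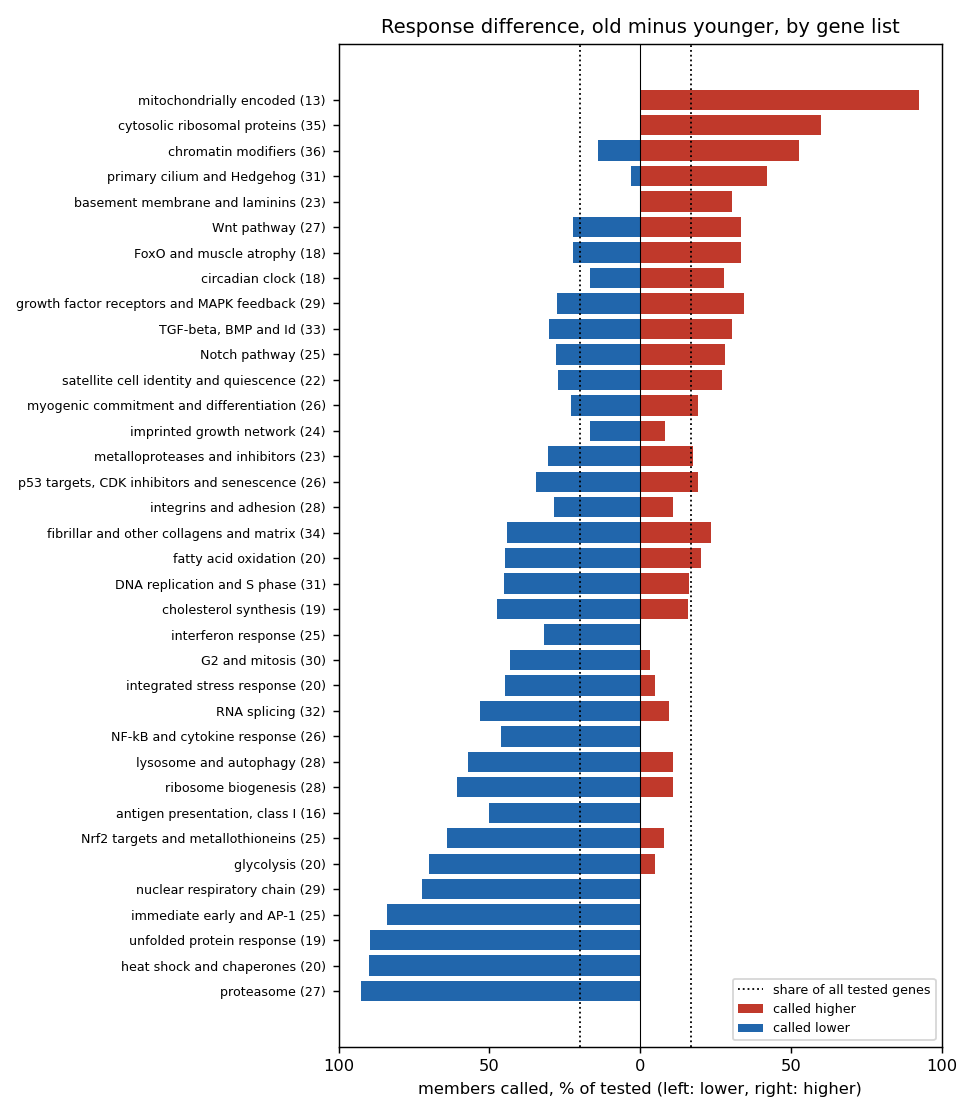
Share of the tested members of each gene list (number in brackets) called higher (red, right) or lower (blue, left) in the old minus younger response; dotted lines mark the shares of all genes tested, 16.7% higher and 19.9% lower. Proteasome, chaperone, unfolded protein response and immediate early lists reach furthest to the left, and mitochondrially encoded and ribosomal protein lists furthest to the right.

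Some of the listed inflammatory genes were lower in the old response. Of 26 NF-kB and cytokine response genes, 12 were lower and none higher (46.2% called, against 36.6% of all genes; 2 were lower with all 30 libraries in the fit and 1 was higher without 60hpi replicate 1), and the list stood a median 4.83 log2 units higher in oQSC than in uninjured cells and 2.82 higher in oASC than in 60hpi cells. Nfkbia, the inhibitor that NF-kB itself induces, was at 521 and 523 CPM in oASC cells, against 1990 and 2050 CPM in oQSC cells. It was at 73.1 and 98.3 CPM in 60hpi cells, against 71.4 and 65.3 CPM in uninjured cells. Both old groups lay above both younger groups, and the difference was -2.28 ± 0.22 (adjusted p = 0.000164). Nfkb1, a subunit of the factor, fell in both responses, by 3.39 ± 0.13 in old cells and by 0.81 ± 0.13 in younger cells (difference -2.58 ± 0.18). With all 30 libraries in the fit, adjusted p was 0.147 for Nfkbia and 0.439 for Nfkb1. Il33, an alarmin cytokine, was at 110 and 59.6 CPM in oASC cells, against 127 and 93.4 CPM in oQSC cells, and at 22.9 and 22.7 CPM in 60hpi cells, against no count in uninjured cells. Against a floor of 3 counts over the uninjured libraries its younger rise was at least 288-fold, while its old response of -0.37 ± 0.29 was not called. Its response difference was then -8.54 or lower (adjusted p = 0.000123).

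Of 25 interferon response genes 8 were lower and none higher, and this share of 32% did not exceed the 36.6% of all genes. Of 16 class I antigen presentation genes 8 were lower and none higher (50% called). With all 30 libraries in the fit 2 interferon and 4 class I genes were lower. An interferon gene was higher without uninjured replicate 1, and a class I gene without oQSC replicate 2. Ifitm3, an antiviral membrane protein, fell by 2.5 ± 0.13 in old cells and rose by 0.76 ± 0.13 in younger cells (difference -3.26 ± 0.18). H2-K1, a class I heavy chain, was at 134 and 135 CPM in oASC cells, against 1090 and 1190 CPM in oQSC cells, and at 65 and 96.1 CPM in 60hpi cells, against 80.8 and 83.8 CPM in uninjured cells. Its younger groups overlapped and its old groups did not (difference -3.05 ± 0.26). H2-D1, its close relative, had a difference of -3.61 ± 0.35, or -4.2 without uninjured replicate 2, and reads can be shared between such relatives.

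Markers of immune cells were also present in these libraries. The 16 macrophage and monocyte markers summed to 82.5 and 105 CPM in oASC cells, 172 and 144 CPM in oQSC cells, 250 and 54.1 CPM in 60hpi cells, and 6.95 and 3.64 CPM in uninjured cells. Of the 16, 13 were lower in the old response (5 with all 30 libraries in the fit), a share of 81.2% against 36.6% of all genes. With injury 1 rose and 1 fell in old cells, and 14 rose and none fell in younger cells. Uninjured cells had no count for 10 of the 16, namely Adgre1, C1qa, C1qb, C1qc, Ctss, Cx3cr1, Fcer1g, Itgam, Ms4a7 and Tyrobp. Itgam had none in oQSC cells either. The 7 tested neutrophil markers summed to 13.4 and 11.7 CPM in oQSC cells and to at most 2.57 CPM in the other 6 libraries. None of these 7 was called, and 1 was lower with DESeq2. Among 4 tested lymphocyte markers 1 was lower (25% called), and none with all 30 libraries in the fit. The part of such cells in the inflammatory differences was not tested.

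Genes of the cell cycle rose with injury in both ages, and a share of them rose less in old cells. All 31 DNA replication genes and all 30 genes of G2 and mitosis rose with injury in old and in younger cells. Of the replication genes 14 were lower and 5 higher in the old response, and of the mitotic genes 13 were lower and 1, Plk1, was higher (4, 0, 2 and 0 with all 30 libraries in the fit). The shares called were 61.3% of the replication genes and 46.7% of the mitotic genes, against 36.6% of all genes. Without oASC replicate 1 or 60hpi replicate 2, 8 mitotic genes were lower. No mitotic gene was higher without the filter on low counts, or when either oASC library, oQSC replicate 1 or either 60hpi library was left out, and 3 replication genes were higher whenever a single oASC or 60hpi library was left out. The mitotic list had a median old response of 5.35 and a median younger response of 6.78. Its members stood a median 1.74 log2 units higher in oQSC than in uninjured cells and 0.25 higher in oASC than in 60hpi cells.

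Rrm2, the cell cycle regulated subunit of ribonucleotide reductase, was at 554 and 551 CPM in oASC cells, against 338 and 331 CPM in oQSC cells, and at 622 and 715 CPM in 60hpi cells, against 2.26 and 2.74 CPM in uninjured cells. The old response of 0.73 ± 0.13 and the younger response of 8.03 ± 0.18 gave a difference of -7.31 ± 0.21 (adjusted p = 2.47e-06). Rrm1, the other subunit, rose by 1.79 ± 0.14 in old cells and by 4.92 ± 0.16 in younger cells (difference -3.13 ± 0.2). Mcm4, part of the replicative helicase, had a difference of -3.3 ± 0.22. Its partner Mcm2 did not differ past the threshold, with 309 and 306 CPM in oASC cells, against 4.52 and 6.2 CPM in oQSC cells, and 154 and 184 CPM in 60hpi cells, against 4.93 and 1.33 CPM in uninjured cells (difference -0.07 ± 0.59, adjusted p = 0.977). Mcm2 differences ran from -1.13 without uninjured replicate 1 (adjusted p = 0.0414) to 0.55 without uninjured replicate 2.

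Several cell cycle genes had no count in uninjured cells. Their oQSC levels differed, with Aurka, Nuf2 and E2f7 at 2.13 CPM or less and Cenpi at 19.3 and 17.2 CPM. Aurka, a kinase of the spindle poles, was at 83.9 and 77.5 CPM in oASC cells, against 1.59 and 1.38 CPM in oQSC cells, and at 84.6 and 79 CPM in 60hpi cells, against no count in uninjured cells. Its younger rise was at least 1030-fold, and its response difference was -4.25 or lower (adjusted p = 0.00016). Nuf2, a kinetochore protein, rose at least 670-fold in younger cells, and its difference was -4.45 or lower, with adjusted p = 0.104 when all 30 libraries were in the fit. E2f7, a repressor of S phase genes, and Cenpi, a centromere protein, had differences of -4.93 or lower and -6.67 or lower, with younger rises of at least 740-fold and at least 282-fold. The injured levels were nearer to each other, with 34.5 and 29.9 CPM of E2f7 in oASC cells, against 58.4 and 58.7 CPM in 60hpi cells, and 49.6 and 51 CPM of Cenpi in oASC cells, against 24.2 and 20.4 CPM in 60hpi cells. Ccnb1 and Cdc20, which act in the entry into and exit from mitosis, had a single uninjured library with counts. The Cdc20 difference was -5.17 ± 0.5, or -4.55 and -11.64 without uninjured replicates 1 and 2, and the Ccnb1 difference was -3.23 ± 0.71, or -2.62 and -9.56. Adjusted p for Ccnb1 was 0.162 with all 30 libraries in the fit. Mki67, the proliferation marker, was at 124 and 114 CPM in oASC cells, against 1.28 and 2.73 CPM in oQSC cells, and at 144 and 165 CPM in 60hpi cells, against 15.7 and 3.6 CPM in uninjured cells. Its difference was 1.8 ± 0.8, which did not pass the test (adjusted p = 0.116). Without uninjured replicate 2 it did, at 2.39 with adjusted p = 0.00582.

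Most of the listed genes of protein turnover and ribosome assembly were lower in the old response as well. Calls covered 92.6% of the proteasome genes and 71.4% of the ribosome biogenesis genes, against 36.6% of all genes. Proteasome genes, which build the particle that degrades tagged proteins, were lower in 25 of 27 cases and higher in none. In old cells 15 rose and 4 fell, and in younger cells all 27 rose. The count fell to 9 with all 30 libraries in the fit. Psmd12, a subunit of the regulatory lid, was at 160 and 171 CPM in oASC cells, against 249 and 197 CPM in oQSC cells. It was at 192 and 194 CPM in 60hpi cells, against 20 and 25.8 CPM in uninjured cells. The uninjured libraries stood below the other 6, and the difference was -3.5 ± 0.24 (adjusted p = 4.24e-05). Psmd11 and Psmd2 had differences of -2.76 ± 0.19 and -2.42 ± 0.17, with adjusted p = 0.0959 and 0.0756 when all 30 libraries were in the fit. Of 28 ribosome biogenesis genes 17 were lower and 3 higher (2 and 0 with all 30 libraries in the fit), and 1 was higher without oASC replicate 1, oASC replicate 2 or uninjured replicate 1. Nop56, part of the particles that modify ribosomal RNA, fell by 1.63 ± 0.14 in old cells and rose by 2.05 ± 0.15 in younger cells (difference -3.68 ± 0.2).

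Splicing factors and lysosome genes had more members lower than higher. Calls covered 62.5% of the splicing genes and 67.9% of the lysosome and autophagy genes, against 36.6% of all genes. Of 32 splicing genes 17 were lower and 3 higher (9 and 2 with all 30 libraries in the fit), among them Srsf7, which selects exons (-4.55 ± 0.27), U2af1, which reads the 3′ splice site (-3.51 ± 0.2), and the RNA helicase Ddx5 (-3.02 ± 0.18). Of 28 lysosome and autophagy genes 16 were lower and 3 higher (10 and 0 with all 30 libraries in the fit). Map1lc3b, the protein that coats autophagosomes, was at 113 and 115 CPM in oASC cells, against 1670 and 1340 CPM in oQSC cells, and at 53.3 and 58.7 CPM in 60hpi cells, against 42.3 and 62 CPM in uninjured cells. Its younger groups overlapped, and the difference was -3.82 ± 0.28 (adjusted p = 5.28e-05). Ctsl, a lysosomal protease, had an old response of -0.51 ± 0.2 that was not called and rose by 3.24 ± 0.22 in younger cells. Its difference was -3.75 ± 0.3, or -4.35 without uninjured replicate 2.

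Respiratory genes of the nucleus and of the mitochondrial genome differed in direction. Calls covered 72.4% of the former and 92.3% of the latter, against 36.6% of all genes. Of 29 respiratory chain genes of the nucleus 21 were lower in the old response and none higher, with a median of -1.3, and 8 were lower with all 30 libraries in the fit. Of 13 mitochondrially encoded genes 12 were higher and none lower, with a median of 1.8, and 8 were higher with all 30 libraries in the fit. Cycs, the electron carrier cytochrome c, was at 298 and 298 CPM in oASC cells, against 271 and 209 CPM in oQSC cells, and at 316 and 303 CPM in 60hpi cells, against 21.8 and 22.7 CPM in uninjured cells (difference -3.48 ± 0.21, adjusted p = 2.88e-05). Sdhb of complex II and Uqcrc1 of complex III had differences of -2.63 ± 0.22 and -2.28 ± 0.2. Among the mitochondrially encoded subunits of complex I, mt-Nd3 was at 141 and 175 CPM in oASC cells, against 8.3 and 8.98 CPM in oQSC cells. It was at 73.5 and 105 CPM in 60hpi cells, against 171 and 99.6 CPM in uninjured cells. The oQSC libraries stood below all others, and the difference was 4.79 ± 0.41 (adjusted p = 9.23e-05). mt-Nd4l and mt-Nd6 had differences of 3.89 ± 0.31 and 2.52 ± 0.28.

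Glycolysis genes were called in 75% of cases, against 36.6% of all genes. Of 20 such genes 14 were lower and 1, Gapdh, was higher (5 and 0 with all 30 libraries in the fit). None was higher without oASC replicate 1 or 60hpi replicate 1, and 2 were with DESeq2 or without either oQSC library or uninjured replicate 1. Hk2, the hexokinase of muscle, was at 49.6 and 58.8 CPM in oASC cells, against 142 and 110 CPM in oQSC cells, and at 14.8 and 16.2 CPM in 60hpi cells, against 1.13 and 1.37 CPM in uninjured cells. Old cells were above younger cells in both states, and the difference was -4.82 ± 0.29, with adjusted p = 0.137 when all 30 libraries were in the fit. Ldha, which makes lactate, rose in both, by 1.26 ± 0.16 in old and 4.15 ± 0.17 in younger cells (difference -2.89 ± 0.22). Pfkp, a phosphofructokinase, fell in old cells and rose in younger cells (difference -3.03 ± 0.18). Asns, which makes asparagine, lacked counts in uninjured cells, so that its younger rise was at least 1020-fold and its difference -5.37 or lower.

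Cytosolic ribosomal protein genes were higher in 21 of 35 cases and lower in none (60% called, against 36.6% of all genes), with a median of 0.76. With RLE size factors, with DESeq2, without the filter on low counts or with ribosomal RNA, satellite repeat and mitochondrial models left out, or without oASC replicate 2 or oQSC replicate 2, 1 was lower, and with all 30 libraries in the fit 4 were higher. Rpsa was at 1570 and 1520 CPM in oASC cells, against 332 and 342 CPM in oQSC cells, and at 587 and 656 CPM in 60hpi cells, against 907 and 680 CPM in uninjured cells (difference 2.55 ± 0.22, adjusted p = 1e-04). The oASC libraries were the highest and the oQSC libraries the lowest. Rplp1 and Rps4x had differences of 2.22 ± 0.2 and 1.76 ± 0.16, with adjusted p = 0.0518 for Rps4x when all 30 libraries were in the fit. Ribosomal protein genes have many near-identical pseudogenes, which can take or give reads.

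**Figure D4:**
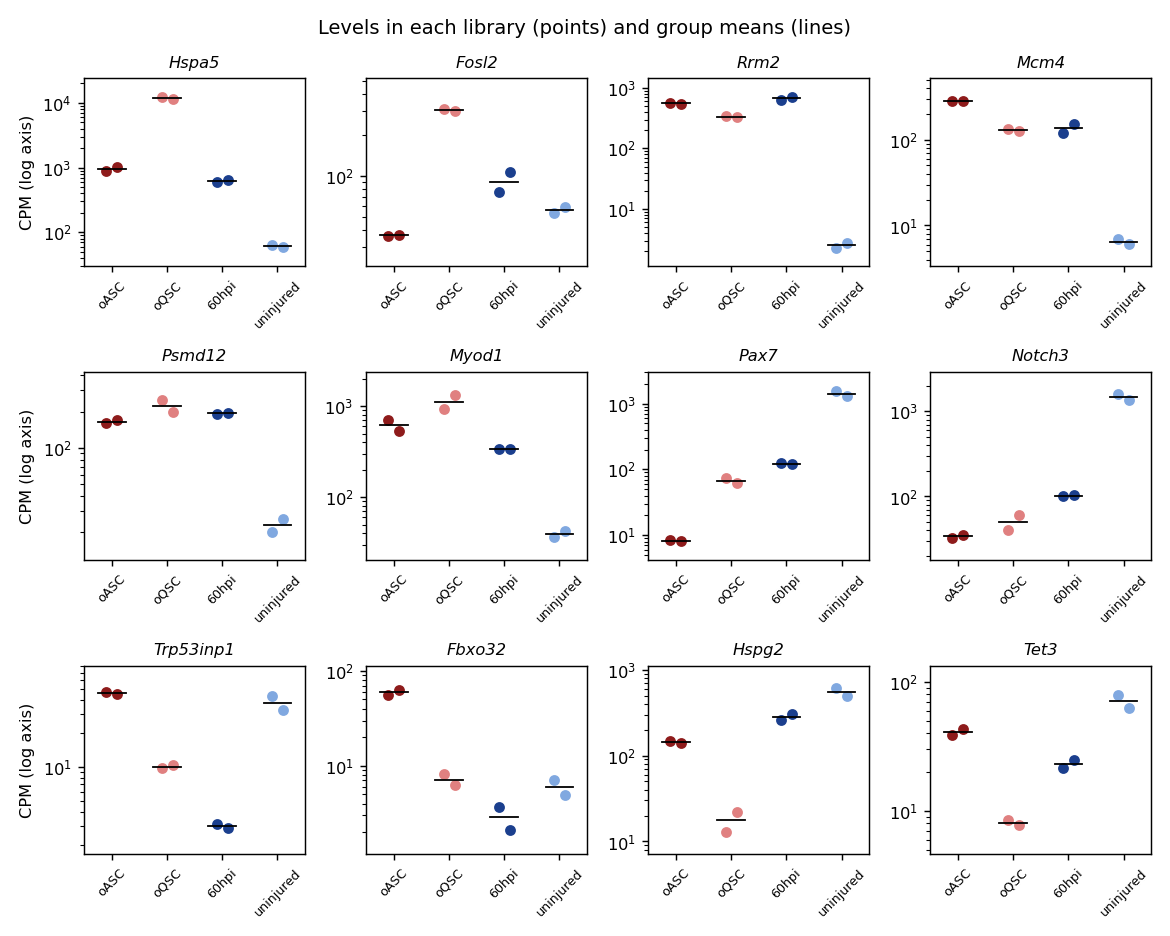
CPM of 12 named genes in each library (points, logarithmic axis) with group means (lines), in the order oASC, oQSC, 60hpi, uninjured, where old groups are red and younger groups blue. The oQSC points of Hspa5 lie at 12100 and 11500 CPM, far above those of uninjured cells at 63.4 and 58.5 CPM, while Pax7 and Notch3 are highest in uninjured cells.

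Satellite cell identity and quiescence genes were called in both directions, 54.5% of them against 36.6% of all genes. Of 22 genes of identity and quiescence, 6 were higher and 6 lower (2 and 2 with all 30 libraries in the fit), and 16 fell in old cells and 14 in younger cells. With DESeq2 10 were lower. Pax7 fell in both, by 3.04 ± 0.15 in old cells and by 3.54 ± 0.15 in younger cells, and the response difference of 0.5 ± 0.19 did not pass the test (adjusted p = 0.0756). Without oQSC replicate 1 it was 0.63 with adjusted p = 0.0453. Its levels lay far apart, at 67.7 ± 7.65 CPM in oQSC cells and 1420 ± 159 CPM in uninjured cells (SD, n = 2 each). Calcr, the calcitonin receptor of quiescent cells, was at 4.61 and 3.81 CPM in oASC cells, against 269 and 272 CPM in oQSC cells, and at 11.1 and 13.2 CPM in 60hpi cells, against 129 and 152 CPM in uninjured cells. It fell further in old cells (difference -2.47 ± 0.23, adjusted p = 0.000128). Chodl, a surface protein of these cells, also fell further in old cells (difference -3.04 ± 0.16). Spry1, a brake on growth factor signalling, fell by 3.48 ± 0.25 in old cells and fell by 3.27 ± 0.25 in younger cells, and the difference of -0.22 ± 0.33 was not called. Sdc4, a heparan sulphate proteoglycan of these cells, was at 879 and 832 CPM in oASC cells, against 17600 and 14400 CPM in oQSC cells, and at 1150 and 1330 CPM in 60hpi cells, against 516 and 637 CPM in uninjured cells (difference -5.33 ± 0.24). The adhesion protein Vcam1 had a difference of -2.77 ± 0.2, and the chemokine receptor Cxcr4, at 23.5 CPM or less in all libraries, one of 3.88 ± 0.49, or 3.2 without oASC replicate 1. With all 30 libraries in the fit adjusted p was 0.0939 for Chodl and 0.103 for Vcam1.

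Among the myogenic factors Myod1 differed. It was at 704 and 541 CPM in oASC cells, against 925 and 1320 CPM in oQSC cells, and at 342 and 336 CPM in 60hpi cells, against 36.4 and 42.8 CPM in uninjured cells. It fell by 0.85 ± 0.2 in old cells and rose by 3.09 ± 0.22 in younger cells, a difference of -3.94 ± 0.29 (adjusted p = 5.34e-05, and 0.224 with all 30 libraries in the fit). Scaled over all 30 libraries, Myod1 was at 1070 and 1550 CPM in oQSC cells and between 83.2 and 3300 CPM in the younger libraries taken 0.5 to 32 hours after injury, and Hspa5 was at 14000 and 13500 CPM in oQSC cells and between 430 and 4880 CPM in those libraries. Myog, which drives differentiation, rose in both, by 2.04 ± 0.45 in old and 2.73 ± 0.48 in younger cells, and its difference of -0.69 ± 0.63 was not called (without uninjured replicate 1 it was -1.8 with adjusted p = 0.00195). Myf5 had a difference of -0.84 ± 0.46 (adjusted p = 0.194), and of -1.72 with adjusted p = 0.00257 without uninjured replicate 2, whose level of 365 CPM stood against 163 CPM in the other uninjured library. Of 26 genes of commitment and differentiation, 5 were higher and 6 lower (1 and 0 with all 30 libraries in the fit). This share of 42.3% called was near the 36.6% of all genes. Without uninjured replicate 1, 11 were lower, and without oASC replicate 1 or 60hpi replicate 1, 2 were higher.

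The receptors Notch1 and Notch3 fell in younger cells and were higher in the old response, in which Notch3 fell by 0.57 and Notch1 was not called (-0.29 ± 0.23). Notch3 was at 32.5 and 35.3 CPM in oASC cells, against 40.9 and 59.8 CPM in oQSC cells, and at 99.9 and 103 CPM in 60hpi cells, against 1580 and 1370 CPM in uninjured cells (difference 3.29 ± 0.27, adjusted p = 7.36e-05). Notch1 was at 53.1 and 38.3 CPM in oASC cells, against 46.5 and 65.2 CPM in oQSC cells, and at 187 and 190 CPM in 60hpi cells, against 757 and 555 CPM in uninjured cells (difference 1.51 ± 0.33, adjusted p = 0.00782). Both receptors were lower in each old group than in either younger group, and adjusted p was 0.0628 for Notch3 and 0.0514 for Notch1 with all 30 libraries in the fit. Dll1, a ligand, rose by 4.48 ± 0.38 in old cells and had a younger response of 0.7 ± 0.33 that was not called. Its difference was 3.77 ± 0.48 (adjusted p = 0.000653), or 4.37 without oQSC replicate 2. The target genes Hey1 and Heyl fell in both ages. Hey1 fell by 2.33 ± 0.18 in old cells and 2.15 ± 0.18 in younger cells (difference -0.18 ± 0.24, not called), and Heyl fell by 4.05 ± 0.31 in old cells and fell by 2.68 ± 0.29 in younger cells. The Heyl difference of -1.37 ± 0.39 was called (adjusted p = 0.0245), but not without oASC replicate 2 (0.0585), oQSC replicate 2 (0.0651), 60hpi replicate 1 (0.0578) or uninjured replicate 1 (0.0661). Over the 25 genes of the pathway 7 were higher and 7 lower (1 and 1 with all 30 libraries in the fit), and 4 were higher without oASC replicate 1 or 2 and 4 lower without oQSC replicate 2 or 60hpi replicate 2. Calls covered 56% of the pathway genes, against 36.6% of all genes. Notch3 is also a marker of pericytes. The other 11 pericyte and smooth muscle markers summed to 219 and 208 CPM in oASC cells, 251 and 262 CPM in oQSC cells, 123 and 118 CPM in 60hpi cells, and 166 and 101 CPM in uninjured cells, with Acta2 the larger part in each library. Their sum was highest in oQSC cells, and Notch3 was highest in uninjured cells. Single markers differed, with Abcc9 highest in uninjured cells (8.65 and 11.5 CPM) and Kcnj8 highest in oQSC cells (7.42 and 11 CPM). The part of pericytes in the Notch3 difference was not tested. Of these 11, Cspg4 was higher in the old response and Cnn1, Kcnj8 and Rgs5 were lower. Of all 12 with Notch3, 41.7% were called, against 36.6% of all genes. None of the 12 was higher and 1 was lower with all 30 libraries in the fit. With Notch3 counted 2 of the 12 were higher, and 1 with the replicate block or when either oASC library, either oQSC library, 60hpi replicate 1 or uninjured replicate 1 was left out.

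Of 26 p53 targets and cell cycle inhibitors 5 were higher and 9 lower (1 and 5 with all 30 libraries in the fit). Calls covered 53.8% of the list, against 36.6% of all genes. Cdkn1a, the inhibitor p21, was at 448 and 443 CPM in oASC cells, against 1300 and 1130 CPM in oQSC cells, and at 308 and 339 CPM in 60hpi cells, against 10.3 and 5.6 CPM in uninjured cells. It fell in old cells and rose in younger cells, with a difference of -6.84 ± 0.35 (adjusted p = 1.85e-05). Gadd45a, which responds to DNA damage and stress, had a difference of -6.69 ± 0.39. Trp53, which encodes p53, rose in younger cells by 1.92 ± 0.15 and was not called in old cells (difference -1.68 ± 0.2, adjusted p = 0.279 with all 30 libraries in the fit). Trp53inp1, a p53 target of autophagy and cell death, went the other way. It was at 46.5 and 45.3 CPM in oASC cells, against 9.81 and 10.4 CPM in oQSC cells, and at 3.09 and 2.88 CPM in 60hpi cells, against 43.4 and 32.1 CPM in uninjured cells. Old cells rose by 2.18 ± 0.2 and younger cells fell by 3.66 ± 0.22, and the difference of 5.84 ± 0.29 (adjusted p = 1.71e-05) was the largest positive one under the rule for named genes. Sesn1, Zmat3 and Eda2r, further p53 targets, were also higher.

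Genes higher in the old response included regulators of chromatin. Of 36, 19 were higher and 5 lower (8 and 2 with all 30 libraries in the fit), with a median of 1.02. Calls covered 66.7% of the list, against 36.6% of all genes. Tet3, which oxidises methylated cytosine, was at 38.8 and 42.9 CPM in oASC cells, against 8.45 and 7.81 CPM in oQSC cells, and at 21.4 and 25 CPM in 60hpi cells, against 78.9 and 62.7 CPM in uninjured cells. It rose in old cells and fell in younger cells (difference 3.94 ± 0.26, adjusted p = 3.55e-05). Srcap, a remodeller that exchanges histones, had a difference of 3.34 ± 0.23, and the acetyltransferase Ep300 and the methyltransferases Kmt2c and Dnmt3a were also higher. Hdac1, a histone deacetylase, was lower, with a difference of -2.24 ± 0.2.

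Of 23 basement membrane genes 7 were higher and none lower (6 with all 30 libraries in the fit). This share of 30.4% did not exceed the 36.6% of all genes called. Of 31 genes of the primary cilium and Hedgehog signalling 13 were higher and 1, Ift57, was lower (45.2% called). The cilium count was 2 with all 30 libraries in the fit, 7 without oASC replicate 1 or 2, and 8 without 60hpi replicate 1, and 2 were lower without 60hpi replicate 2 or uninjured replicate 2. Hspg2, perlecan, was at 148 and 140 CPM in oASC cells, against 13 and 22.1 CPM in oQSC cells, and at 259 and 306 CPM in 60hpi cells, against 606 and 491 CPM in uninjured cells (difference 3.99 ± 0.34, adjusted p = 9.96e-05). It rose by 3.04 ± 0.25 in old cells and fell by 0.96 ± 0.24 in younger cells. The laminin chains Lamc1 and Lama5 had differences of 2.24 ± 0.18 and 1.98 ± 0.23, and Col4a1 and Col4a2, the type IV collagen chains, were also higher. Gli1, a target and effector of Hedgehog signalling, was at 3.63 and 2.53 CPM in oASC cells, against 1.73 and 1.94 CPM in oQSC cells, and at 0.994 and 0.686 CPM in 60hpi cells, against 15.8 and 19.3 CPM in uninjured cells (difference 5.12 ± 0.48, adjusted p = 0.000151). Its younger fall of 4.38 ± 0.37 on the log2 scale passed the test and its old response of 0.74 ± 0.32 did not.

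Of 18 clock genes 13 fell in old cells and 13 fell in younger cells. Nr1d1, a repressor of the clock, was at 106 and 108 CPM in oASC cells, against 169 and 206 CPM in oQSC cells, and at 60.9 and 64.4 CPM in 60hpi cells, against 955 and 881 CPM in uninjured cells (difference 3.06 ± 0.19, adjusted p = 3.05e-05). Tef, an output factor, had a difference of 2.58 ± 0.22, and Nfil3, which opposes it, one of -4.45 ± 0.32. In the response difference 5 were higher and 3 lower (2 and 1 with all 30 libraries in the fit). The share called was 44.4%, against 36.6% of all genes. When any library of the oASC, oQSC or 60hpi groups was left out 2 or 3 were higher, and without uninjured replicate 1, 6 were lower. The labels used here give no time of day.

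Other large differences of the higher kind were those of Tnrc18 (5.53 ± 0.32), Chpf2, an enzyme of chondroitin synthesis (5.31 ± 0.27), Inppl1, the lipid phosphatase SHIP2 (5.04 ± 0.28), and Adamts7, a secreted metalloprotease (4.83 ± 0.29). Adamts7 was at 56.7 and 58.4 CPM in oASC cells, against 0.711 and 0.511 CPM in oQSC cells, and at 30.8 and 35.6 CPM in 60hpi cells, against 10.2 and 9.87 CPM in uninjured cells. It rose in both ages. Pik3r1, the regulatory subunit of PI3 kinase, fell in younger cells by 3.55 ± 0.26 and was not called in old cells (difference 3.23 ± 0.34). Ngfr, a neurotrophin receptor, had a difference of 5.39 ± 0.95, which ran from 4.67 without oQSC replicate 1 to 6.96 without oQSC replicate 2 (4.72 and 6.21 without 60hpi replicates 1 and 2). Rrad, a small GTPase, had the opposite sign and no count in uninjured cells, where its younger rise was at least 464-fold, its old rise 1.19 ± 0.14, and its difference -7.67 or lower.

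For a minority of genes the distance between old and younger cells was larger after injury. Among the 4635 called genes that met the rule for named genes, this held for 440 of 1822 higher genes and 241 of 2813 lower genes. Fbxo32, a ubiquitin ligase of muscle atrophy, was at 56 and 63.3 CPM in oASC cells, against 8.13 and 6.2 CPM in oQSC cells, and at 3.7 and 2.09 CPM in 60hpi cells, against 7.03 and 4.93 CPM in uninjured cells. The oASC libraries stood above the other 6, and the difference was 4.09 ± 0.44 (adjusted p = 0.000292). Dusp5, a phosphatase that ends MAP kinase signalling, was at 20.5 and 18.3 CPM in oASC cells, against 10.5 and 13.2 CPM in oQSC cells, and at 134 and 96.7 CPM in 60hpi cells, against 2.02 and 2 CPM in uninjured cells. The 60hpi libraries stood above all others (difference -5.13 ± 0.32, with adjusted p = 0.104 when all 30 libraries were in the fit).

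**Figure D5:**
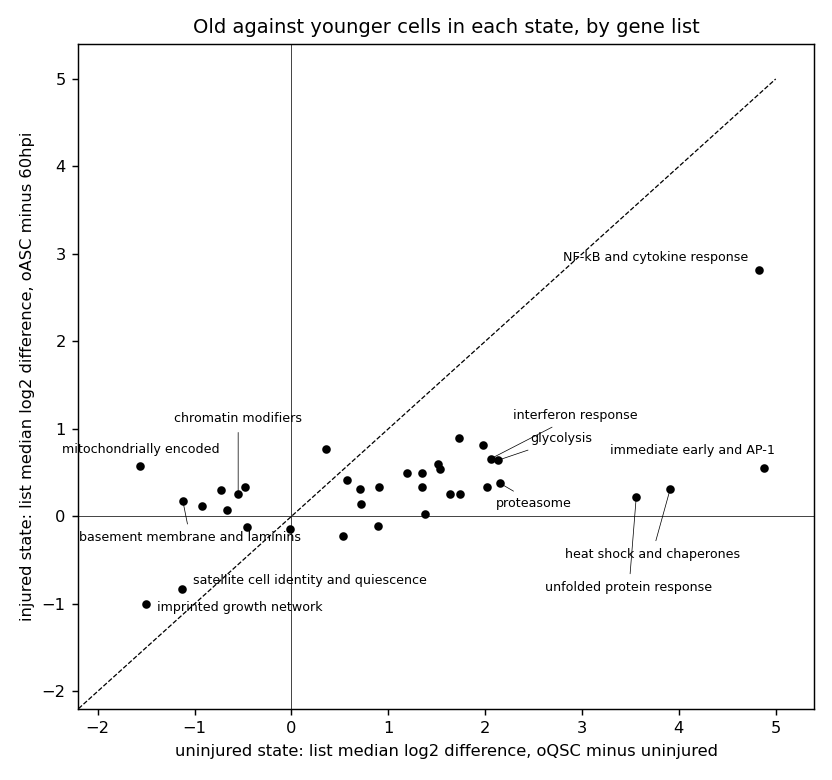
Median log2 difference between old and younger cells for each gene list before injury (horizontal, oQSC minus uninjured) and after it (vertical, oASC minus 60hpi), with 1 point per list, lists named in the text labelled, and the dashed line marking equal values. Most lists lie nearer to 0 on the vertical axis than on the horizontal one, and the NF-kB and cytokine list stands apart at 4.83 and 2.82.

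Matrix, BMP and growth factor genes had members in both directions. Of 34 collagen and matrix genes 15 were lower and 8 higher (4 and 4 with all 30 libraries in the fit). Calls covered 67.6% of the list, against 36.6% of all genes. Thbs1, a matrix protein that activates TGF-beta, was at 143 and 157 CPM in oASC cells, against 29.3 and 34.8 CPM in oQSC cells, and at 404 and 442 CPM in 60hpi cells, against 7.19 and 10.1 CPM in uninjured cells. It rose in both ages, and less in old cells (difference -3.37 ± 0.25, with adjusted p = 0.0822 when all 30 libraries were in the fit). Timp1, an inhibitor of metalloproteases, and Cd44, a hyaluronan receptor, also rose less in old cells, with differences of -3.9 ± 0.29 and -2.44 ± 0.17. With all 30 libraries in the fit adjusted p was 0.447 for Cd44. Col5a3, a fibrillar collagen chain, was higher (4.32 ± 0.35). Id3, a target of BMP signalling, was at 257 and 188 CPM in oASC cells, against 2680 and 2750 CPM in oQSC cells, and at 184 and 164 CPM in 60hpi cells, against 84.2 and 90.1 CPM in uninjured cells (difference -4.6 ± 0.24, adjusted p = 1.85e-05). Bmp4, a ligand of BMP signalling, fell in both, by 5.28 ± 0.15 in old cells and 3.25 ± 0.13 in younger cells. The difference of -2.03 ± 0.18 was called. Of 33 TGF-beta, BMP and Id genes 10 were higher and 10 lower (3 and 6 with all 30 libraries in the fit), a share called of 60.6%.

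Panel genes not called, beside Pax7, Myf5, Myog, Mcm2, Mki67, Jun, Spry1, Hey1 and Cdkn2a, were Mymk, the fusogen of myoblasts (0.05 ± 1.25), Cdkn1c, the inhibitor p57 (0.08 ± 0.67), Col1a1 (0.17 ± 0.39) and the surface protein Cd34 (-1.04 ± 0.4). Cd34 passed the threshold without uninjured replicate 1 (-0.59, adjusted p = 0.0447), without uninjured replicate 2 (-1.84, adjusted p = 0.000433), with no filter on low counts (0.0401) and with DESeq2 (0.0155). The sign of the first 3 changed when single libraries were left out.

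Further lists had members in both directions, and between 25% (imprinted genes) and 65% (fatty acid oxidation) of their members were called, against 36.6% of all genes. Of 19 cholesterol synthesis genes 9 were lower and 3 higher, and of 20 fatty acid oxidation genes 9 were lower and 4 higher (3, 0, 5 and 0 with all 30 libraries in the fit). Without oASC replicate 1, oASC replicate 2, 60hpi replicate 1 or uninjured replicate 2, 2 fatty acid oxidation genes were higher. Of 20 genes of the integrated stress response 9 were lower, among them Asns, Atf4 and Trib3, and 1, Vldlr, was higher (3 and 0). None was higher without oASC replicate 2, and 2 were without oQSC replicate 2. Of 23 metalloproteases and inhibitors 7 were lower and 4 higher (1 and 0), and of 28 integrins and adhesion genes 8 were lower and 3 higher (4 and 1), a share of 39.3% that is near that of all genes. Without oQSC replicate 2, 5 of these were higher. Of 27 Wnt genes 9 were higher and 6 lower (1 and 1), and of 18 FoxO and atrophy genes 6 were higher and 4 lower (2 and 0). Of 29 growth factor receptor and MAPK feedback genes 10 were higher and 8 lower (2 and 3), with 3 to 6 higher when oASC replicate 1 or 2, oQSC replicate 1, 60hpi replicate 1 or 2, or uninjured replicate 2 was left out. Of 24 imprinted genes of the growth network 2 were higher and 4 lower (0 and 0). Of these 4 were higher with DESeq2, and 1 with RLE size factors, the replicate block, no filter or technical models left out, or without oASC replicate 1, oQSC replicate 1 or either 60hpi library.

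Marker sums of several other cell types of muscle were highest in the oQSC libraries, and single markers did not all follow their sum. The 13 tested fibro-adipogenic and fibroblast markers summed to 229 and 237 CPM in oASC cells, 1450 and 2270 CPM in oQSC cells, 167 and 150 CPM in 60hpi cells, and 624 and 606 CPM in uninjured cells, and 5 were lower in the old response (38.5%; 3 with all 30 libraries in the fit, and 1 higher without 60hpi replicate 2). Gsn and Dcn took the larger part of the oQSC sums, and Pdgfra, a defining marker, was at 3.44 and 4.49 CPM there, and had no count in uninjured cells. Col15a1 went the other way, at 2.1 and 4.14 CPM in oQSC cells, against 147 and 93 CPM in uninjured cells. Dpt was at 107 and 113 CPM in oQSC cells, against 98.7 and 105 CPM in uninjured cells. The 14 endothelial markers summed to 35.7 and 28.2 CPM in oASC cells, 141 and 179 CPM in oQSC cells, 21 and 23.7 CPM in 60hpi cells, and 58.9 and 84.1 CPM in uninjured cells, and 4 were lower (28.6%; 1 with all 30 libraries in the fit, and 2 without 60hpi replicate 1). Tek was the largest endothelial marker in oQSC cells, at 60.7 and 84.4 CPM. Egfl7 was at 4.95 and 7.17 CPM there, against 7.09 and 8.37 CPM in oASC cells. The 16 muscle fibre markers summed to 824 and 898 CPM in oASC cells, 198 and 229 CPM in oQSC cells, 1070 and 1080 CPM in 60hpi cells, and 349 and 224 CPM in uninjured cells, and 6 were lower and 2 higher (2 and 0 with all 30 libraries in the fit). Without oASC replicate 1, either oQSC library or 60hpi replicate 2, 3 were lower, and without either oASC library or uninjured replicate 1, 1 was higher. The 7 tenocyte markers summed to 110 and 126 CPM in oQSC cells and to at most 17.4 CPM in the other 6 libraries. Of the 7, 4 were lower and 1 higher in the old response (2 and 0 with all 30 libraries in the fit). Calls covered 50% of the muscle fibre markers and 71.4% of the tenocyte markers, against 36.6% of all genes. The marker Scx was lowest in oQSC cells, at 0.483 and 0.332 CPM, against 5.78 and 3.84 CPM in oASC cells. The 9 Schwann cell markers summed to 501 and 488 CPM in oQSC cells and to at most 120 CPM in the others. Pmp22 took nearly all of these oQSC sums, at 480 and 463 CPM. Among the others Mbp was highest in oQSC cells (11.1 and 14.5 CPM). Cadm4 was highest in uninjured cells, at 7.76 and 9.16 CPM, against 1.25 and 1.48 CPM in oQSC cells. In the old response 1 Schwann cell marker was higher and 1 lower (22.2% called, against 36.6% of all genes), and none with all 30 libraries in the fit. The 10 satellite cell markers summed to 3730 and 3840 CPM in oASC cells, 22800 and 20000 CPM in oQSC cells, 2900 and 3310 CPM in 60hpi cells, and 4360 and 4340 CPM in uninjured cells, and Sdc4 made up most of the oQSC sums. Tested red blood cell markers summed to 209 and 194 CPM in oQSC cells and 53.3 and 57.5 CPM in uninjured cells, and to at most 6.67 CPM in the injured groups. The part of these cells in the response differences, matrix genes included, was not tested.

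The direction of the difference moved with the length and base composition of the transcripts. Among protein-coding genes, the median exonic length was 5850 bases in the higher genes, 3748 bases in the lower genes and 4384 bases in all genes tested, and the median GC content was 52.4%, 48.1% and 49.9% in the same order. Of the 3733 genes with the shortest exonic length 8.87% were higher and 30.6% lower, and of the 3733 with the longest 30.3% were higher and 16.3% lower. The part of length and GC content in the gene lists was not tested.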

How the data were processed

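Polyadenylated RNA of 30 libraries was measured. Per the labels' protocols, the miRNeasy FFPE kit, SMART-Seq v4 cDNA, Tn5 libraries and paired-end reads were used. Trimmomatic 0.36, HISAT2 2.1.0, SAMtools 1.3, StringTie 1.3.3 and the mm10 genome are named in the submitters' processing notes. For the counting program, the strand and the annotation the entry is "not given in the sources used here", so reads of overlapping, antisense or near-identical genes are uncertain. The authors deposited raw counts per gene. Younger cells stood in a deposited file with 55450 identifiers and old cells in another with 55335, and 55154 matched without version number.

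The 8 libraries entered 1 model in edgeR 4.0.16 (R 4.3.3, limma 3.58.1, data.table version 1.17.8), with filterByExpr (minimum count 10, minimum total 15), TMM scaling, 4 group means and the quasi-likelihood F test. Adjusted p is Benjamini-Hochberg over 21896 genes, with 0.05 as the threshold. Errors of log2 differences, called SE, are the absolute log2 difference divided by the square root of its F statistic. They rest on a spread estimated from all 8 libraries with information shared across genes. The biological coefficient of variation was 0.286. Folds against groups without counts used a floor of 3 counts over the 2 libraries, which covers counting error only. Promoters came from the RefSeq table of GRCm38.p6, and exonic length and GC content from GENCODE annotation in the reference. The script was tested on simulated data.

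Members, lists and tests were chosen with earlier results of these data known. Named genes were the 12 largest differences in each direction among called genes with a mean of at least 20 CPM in the highest group and 5 CPM in a group of each table, with old and younger pairwise responses that do not overlap, and without unnamed models, mitochondrial and ribosomal protein genes. Up to 3 called members of each list with the smallest adjusted p and a panel of 30 genes were added. Of these 171 genes, 102 are printed, a selection made after their values were seen; 90 of them were called. Tried as alternatives were the replicate block, no filter, RLE size factors, DESeq2 1.42.0, all 30 libraries, technical gene models left out, identifiers with version, and each library left out in turn.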

Additional observations from a re-analysis of the deposited data

Results flagged for a closer look

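The old and the younger response to injury differed in the test of the difference itself for 90 of the 102 genes printed, against 36.6% of all genes tested. Most of the printed genes were taken from called genes, so this count follows from the selection. Values are log2 differences, old response minus younger response, by edgeR's quasi-likelihood test, and no explanation of them was weighed.

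Among genes lower in the old response, the difference was -9.33 for Fosl1, -7.31 for Rrm2, -6.98 for Hspa5, -6.84 for Cdkn1a, -6.69 for Gadd45a, -6.64 for Mt1, -5.43 for Hspa8, -5.33 for Sdc4, -5.28 for Hsph1 and -5.22 for Mt2. Next in size it was -5.17 for Cdc20, -5.13 for Manf, -5.13 for Dusp5, -4.94 for Ier2, -4.82 for Hk2, -4.8 for Stip1, -4.6 for Id3, -4.55 for Srsf7, -4.48 for Pdia6 and -4.45 for Nfil3. Further down it was -3.94 for Myod1, -3.9 for Timp1, -3.82 for Map1lc3b, -3.76 for Fosl2, -3.75 for Ctsl, -3.68 for Fos, -3.68 for Nop56, -3.61 for H2-D1, -3.51 for U2af1 and -3.5 for Psmd12. It came to -3.48 for Myc, -3.48 for Cycs, -3.37 for Thbs1, -3.3 for Mcm4, -3.26 for Ifitm3, -3.25 for Sod2, -3.23 for Ccnb1, -3.13 for Rrm1, -3.05 for H2-K1 and -3.04 for Chodl. Smaller differences were -3.03 for Pfkp, -3.02 for Ddx5, -2.89 for Ldha, -2.77 for Vcam1, -2.76 for Psmd11, -2.63 for Sdhb, -2.58 for Nfkb1, -2.47 for Calcr and -2.44 for Cd44. The remaining lower genes had -2.42 for Psmd2, -2.28 for Nfkbia, -2.28 for Uqcrc1, -2.24 for Hdac1, -2.03 for Bmp4, -1.68 for Trp53 and -1.37 for Heyl. For genes with no count in uninjured cells, the bound is -8.54 or lower for Il33, -7.67 or lower for Rrad, -6.67 or lower for Cenpi, -5.37 or lower for Asns, -4.93 or lower for E2f7, -4.45 or lower for Nuf2 and -4.25 or lower for Aurka.

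Among genes higher in the old response, the difference was 5.84 for Trp53inp1, 5.53 for Tnrc18, 5.39 for Ngfr, 5.31 for Chpf2, 5.12 for Gli1, 5.04 for Inppl1, 4.83 for Adamts7, 4.79 for mt-Nd3 and 4.32 for Col5a3. After these it was 4.09 for Fbxo32, 3.99 for Hspg2, 3.94 for Tet3, 3.89 for mt-Nd4l, 3.88 for Cxcr4, 3.77 for Dll1, 3.34 for Srcap, 3.29 for Notch3 and 3.23 for Pik3r1. The smallest were 3.06 for Nr1d1, 2.58 for Tef, 2.55 for Rpsa, 2.52 for mt-Nd6, 2.24 for Lamc1, 2.22 for Rplp1, 1.98 for Lama5, 1.76 for Rps4x and 1.51 for Notch1.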

How the results depend on the processing

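The response difference was called in 8003 genes, in 7253 to 8606 with RLE size factors, DESeq2, no filter, technical gene models left out, versioned identifiers or the replicate block (7273 with the block; the numbers do not pair the libraries, with r of -0.02 to 0.01 between deviations of same-numbered libraries), and in 5563 to 7658 when 1 library was left out. With all 30 libraries in the fit it was called in 2098 genes, the old response in 4972 and the younger response in 6154. The old response was called in 7370 to 11250 genes and the younger one in 9546 to 11088 when 1 library was left out. The share of higher calls was 45.6% and ranged from 37.3% to 47.1%. The median difference of all genes was -0.02, -0.15 with technical models left out, -0.2 with all 30 libraries and -0.64 without the filter, and when 1 library was left out it ran from -0.57 (uninjured replicate 2) to 0.08 (oQSC replicate 2), with -0.22 without either oASC library. In all settings 1911 genes were called with the same sign (820 higher, 1091 lower). Of the 90 printed genes that were called, 63 stayed called in every setting and 21 were not called with all 30 libraries. The others, Ier2, H2-D1, Hspg2, mt-Nd3, mt-Nd4l and mt-Nd6, lost no call where they had a value, but lacked a value in some setting. Of 98 list counts, 72 moved by over 1.5 times with all 30 libraries, and the cause was not tested.

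Among the printed genes, signs changed only in those that were not called. Mymk (0.05) was -0.01 with RLE size factors, -0.07 without the filter, -0.11 with technical models left out, and -0.37, -0.58, -0.3 and -2.64 without oASC replicate 2, oQSC replicate 1, 60hpi replicate 1 and uninjured replicate 1, and at most 1.21 (oQSC replicate 2). Cdkn1c (0.08) was -0.04 without the filter, -0.09 with technical models left out, and -0.23, -0.16, -0.11 and -1.03 without the same 4 libraries, and at most 0.53 (uninjured replicate 2). Mcm2 (-0.07) was 0.05 with all 30 libraries, and -1.13 without uninjured replicate 1, and 0.17, 0.1 and 0.55 without oQSC replicate 2, 60hpi replicate 2 and uninjured replicate 2. Col1a1 (0.17) was -0.01, -0.07 and -0.2 without oASC replicate 1, oQSC replicate 1 and uninjured replicate 1 and at most 0.48 without any other library, and Spry1 (-0.22) was 0.15 without oQSC replicate 2. Mitochondrially encoded genes have no value where technical models were left out. Precision is limited by 2 libraries per group and by the 13.5 M counts of an uninjured library.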
